A study of Mus musculus with 12 samples.

Results

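A set of 62 genes that build tight junctions, desmosomes and gap junctions was followed in basal and luminal cells sorted from the mammary glands of WT and MMTVRANK mice. They were the 62 of 53735 gene symbols in the deposited count table that are a numbered claudin (Cldn), zonula occludens protein (Tjp), desmoglein (Dsg), desmocollin (Dsc), plakophilin (Pkp) or connexin (Gja, Gjb, Gjc), or Ocln, Marveld2, Marveld3, F11r, Cgn, Dsp or Jup. The rule used gene symbols only, but it was chosen with earlier results of these data known. The set held 23 claudins, 3 MARVEL proteins (Ocln, Marveld2 and Marveld3), 5 tight junction scaffolds or junctional adhesion molecules, 9 desmosomal cadherins, 6 desmosomal plaque proteins and 16 connexins. Of the 62 genes, 47 passed the filter on low counts and were tested. The minimum was reached in 3 or more libraries of each lineage by 26 of them, only in basal libraries by 6 and only in luminal libraries by 2, so the counts of called genes below describe the tested genes and do not stand for all members.

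RNA-seq libraries of 2 lineages (basal, luminal) and 2 genotypes (WT, MMTVRANK) made up 4 groups of 3. MMTVRANK mice carry a transgene that expresses Rank (Tnfrsf11a), the receptor of the cytokine RANKL, from the MMTV promoter, which is active in mammary epithelium. All 4 groups came from enzymatically dissociated glands, as live cells sorted on the surface proteins CD24 and CD49f. Strain, age and the number of mice behind each library are not given in the sources used here, so every p-value measures only the spread between libraries. For the WT replicate 2 pair the sample titles and the cell subtype field disagree on which library is basal. The titles were followed, and the markers of both libraries lay with their titles. Tnfrsf11a itself reached 73.7, 158 and 65.3 CPM (read counts scaled to the library's size) in the basal and 6.36, 90.8 and 9.91 in the luminal libraries of WT mice. In MMTVRANK mice it reached 415, 129 and 218 CPM in the basal and 319, 156 and 238 in the luminal libraries. WT basal replicate 2 thus lay above MMTVRANK basal replicate 2, and this gene did not separate that library from the MMTVRANK group. WT luminal replicate 2, at 90.8 CPM, lay far above the other WT luminal libraries and below all MMTVRANK luminal ones. Genotype results that WT basal replicate 2 moves are also given without it, and the leading luminal ones without both WT replicate 2 libraries.

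Total counts ran from 12459500 to 15069600 per library. The summed level of 10 basal markers was 22960 to 30040 CPM in the basal and 36.9 to 390.7 CPM in the luminal libraries, and that of 10 luminal markers was 341.6 to 570.8 and 6527 to 18180 CPM. Some libraries stood apart. WT basal replicate 2 held 991.1 CPM of 8 keratinocyte markers (Krt1 316, Krt10 603) where the other libraries held 6.586 to 102.5. MMTVRANK luminal replicate 3 held 1076 CPM of 12 leukocyte markers against 20.38 to 211.2 elsewhere. WT basal replicate 1 held 2989 CPM of 8 fibroblast markers against 317.4 to 711. In a bulk sample, fewer cells of a type and less RNA per cell cannot be told apart.

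Tight junctions seal the space between epithelial cells near the apical surface: claudins and the MARVEL proteins span the membrane and set which ions pass, and scaffolds such as the zonula occludens proteins and cingulin tie them to actin. Desmosomes are spot-like anchors in which desmogleins and desmocollins bind across the gap and plakoglobin, plakophilins and desmoplakin link them to keratin filaments. Connexins assemble into channels that join the cytoplasm of neighbouring cells. In the mammary gland the luminal cells line the duct lumen and hold the tight junction barrier, while basal, mostly myoepithelial, cells lie beneath them on the basement membrane.

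The stretches upstream of 4 members are shown as examples. Their genes, 3 luminal and 1 basal, differed strongly between lineages, as did others not shown, such as Cgn and Cldn3. Each stretch is the 250 bases before the RefSeq start (GRCm38.p6), on the gene's strand, and overlaps no annotated exon. Capitals mark CAGGTG or its reverse complement CACCTG, the E-box that Snail-family repressors are known to bind, and TGANTCA, the AP-1 motif. Cldn4 lies at chr5:134946935-134947184 (minus strand), Tjp3 at chr10:81291582-81291831 (minus), Gjb2 at chr14:57104703-57104952 (minus) and Gja1 at chr10:56377050-56377299 (plus).
Cldn4: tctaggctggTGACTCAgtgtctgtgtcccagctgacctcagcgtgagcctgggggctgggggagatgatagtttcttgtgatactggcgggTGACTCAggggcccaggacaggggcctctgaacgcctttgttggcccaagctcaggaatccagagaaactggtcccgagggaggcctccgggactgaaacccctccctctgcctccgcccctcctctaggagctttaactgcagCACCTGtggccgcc
Tjp3: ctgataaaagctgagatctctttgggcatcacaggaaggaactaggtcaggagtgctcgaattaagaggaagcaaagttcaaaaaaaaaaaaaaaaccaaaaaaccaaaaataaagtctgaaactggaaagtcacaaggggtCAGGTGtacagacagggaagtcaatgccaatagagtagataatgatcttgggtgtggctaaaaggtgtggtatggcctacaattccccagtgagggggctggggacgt
Gjb2: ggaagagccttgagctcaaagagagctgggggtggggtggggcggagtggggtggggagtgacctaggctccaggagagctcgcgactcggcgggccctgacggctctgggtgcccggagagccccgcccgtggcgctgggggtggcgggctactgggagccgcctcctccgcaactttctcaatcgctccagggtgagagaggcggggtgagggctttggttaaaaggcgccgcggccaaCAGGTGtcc
Gja1: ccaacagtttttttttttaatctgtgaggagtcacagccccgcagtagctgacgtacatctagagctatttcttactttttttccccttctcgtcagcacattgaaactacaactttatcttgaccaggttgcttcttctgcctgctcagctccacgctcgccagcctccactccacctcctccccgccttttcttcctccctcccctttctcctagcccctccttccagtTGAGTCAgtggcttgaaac
The E-box began 14 bases before the start in Cldn4, 108 bases before it in Tjp3 and 9 bases before it in Gjb2. No E-box of these letters was in the Gja1 window, which held an AP-1 motif 19 bases before the start. Cldn4 also held AP-1 motifs 240 and 158 bases before the start. RefSeq windows were at hand for 39 of the 62 members (55 entries). Searched on both strands, CAGGTG was in at least 1 upstream window of 7 of 11 matched members called higher in WT luminal cells (63.6%; Cldn4, Cldn6, Cldn7, F11r, Gjb2, Ocln and Tjp3) and of 1 of 7 called lower (14.3%; Pkp4). The matched members called higher that lacked it were Cgn, Cldn3, Cldn10 and Marveld2. CAGGTG was in 19.4% of all genes with a window and in 28.2% of all matched members. The windows of Cldn6, Cldn7, F11r and Ocln reach into annotated exons. TGANTCA was in 10.3% of matched members and 7.82% of all genes, and the grainyhead-like motif AACCNGGTT was in 0 of 39 members and in 0.278% of all genes. These are matches of letters, not binding sites.

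Luminal and basal cells differed in most of the tested junction genes, and in both directions. In WT mice, 17 of the 47 tested members were higher in luminal cells and 15 were lower, at an adjusted p under 0.05. The same rule called 18% of all 18236 tested genes higher and 20% lower. In MMTVRANK mice, 18 members were higher and 14 lower, beside 16.1% and 17% of all genes. The median log2 fold change was -0.41 over members and -0.07 over all genes in WT, and 1.02 and 0.05 in MMTVRANK. The member median moved to 0 in WT without WT basal replicate 2, with 23 of 47 members above 0. Dsg1a and Dsg1b then had no count in any WT library, so a median of 0 need not be a measured value. In MMTVRANK the member median moved to 0.135 without MMTVRANK luminal replicate 3. Tight junction genes made up most of the higher calls: 7 of 14 tested claudins, 3 of 3 MARVEL proteins and 3 of 5 scaffolds or adhesion molecules in WT. Of 11 tested connexins 1 was higher and 6 were lower, and the desmosomal genes were split. The 6 members that reached the filter minimum only in basal libraries were all lower calls in WT, a direction that this route favours. They were Cldn5, Cldn19, Dsc1 and the connexins Gja5, Gjc1 and Gjc3. Cldn6 and Dsg1c reached the minimum only in luminal libraries, a route that favours higher calls, and Cldn6 was a higher call in WT. The WT and MMTVRANK comparisons share no library, but 1 fit of all 12 libraries supplied the spread for both. Their p-values are thus not independent.

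**Figure D1:**
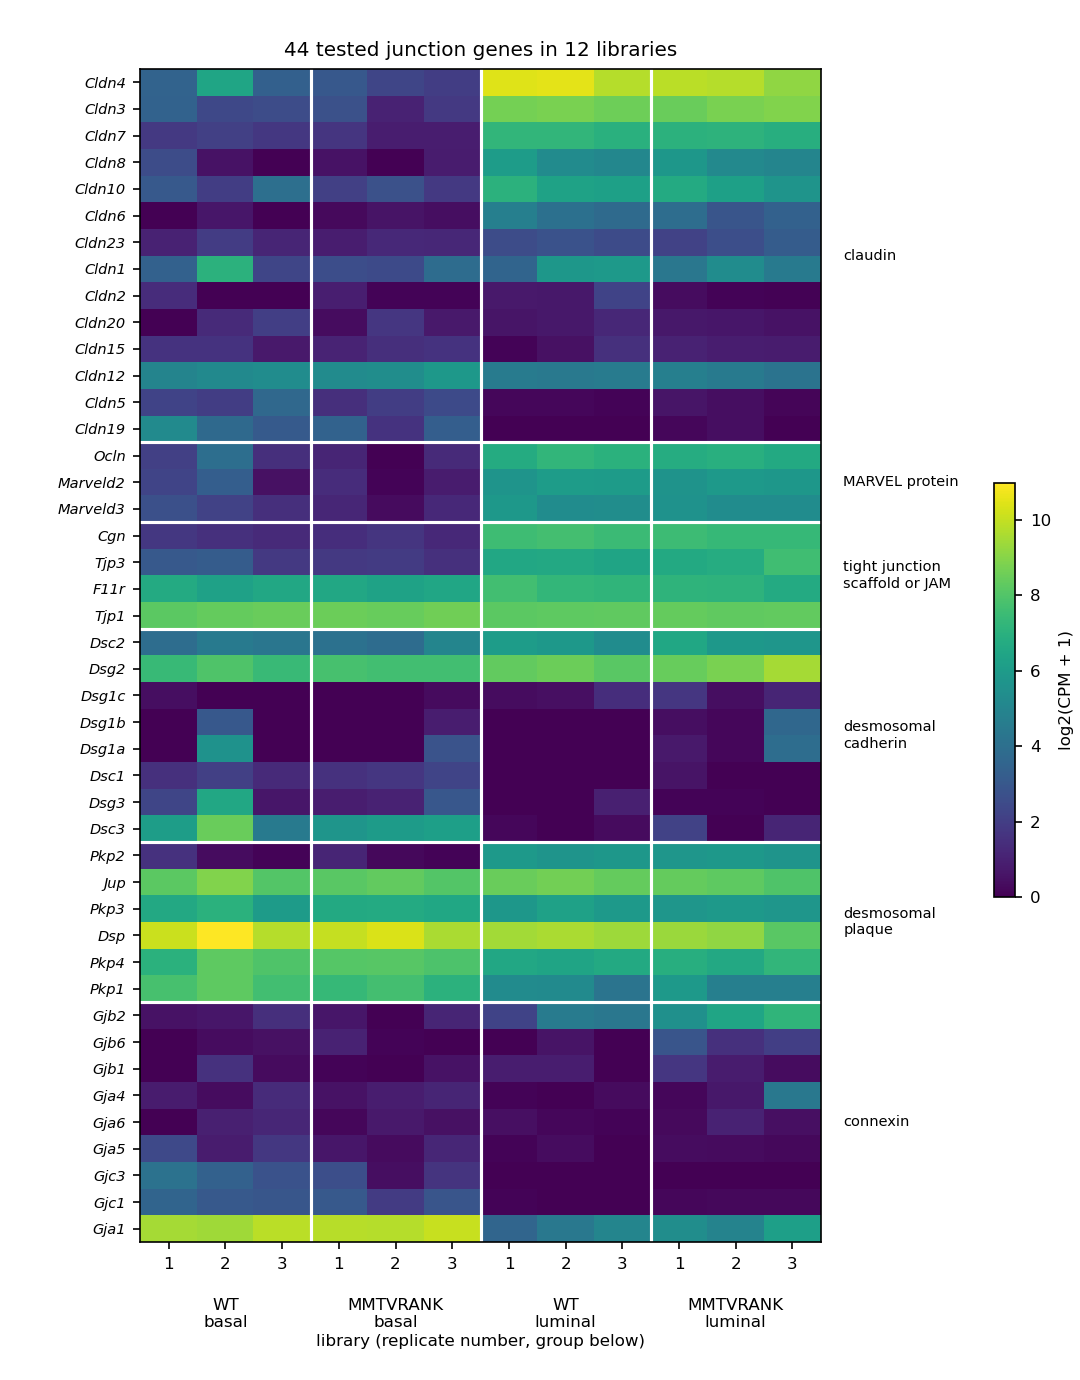
Heat map of log2(CPM + 1) of 44 of the 47 tested junction genes (rows, by family) in the 12 libraries (columns, by group). Claudin and MARVEL rows such as Cldn4, Cldn3 and Ocln are bright in the 6 luminal libraries, Gja1 and Pkp1 are bright in the 6 basal libraries, and Tjp1 and Jup are similar throughout.

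3 claudins carried nearly all claudin RNA of the luminal cells. Cldn4, a barrier-forming claudin, reached 1410, 1480 and 872 CPM in luminal cells of WT and 918, 873 and 567 in those of MMTVRANK mice. Its basal levels were 10.4, 85.6 and 9.24 CPM in WT and 7.11, 3.96 and 2.98 in MMTVRANK mice. The lineages did not overlap, and the highest basal value was that of WT basal replicate 2. The log2 fold change, luminal minus basal, was 5.16 (SE 0.84, adjusted p = 0.000695) in WT and 7.39 (SE 0.94, adjusted p = 0.000143) in MMTVRANK. Without WT basal replicate 2 the WT value was 7.0. Cldn3, encoded near Cldn4 on chromosome 5 (134986214 to 134987472, and 134945119 to 134946934), reached 417, 441 and 378 CPM in WT luminal and 10.1, 4.25 and 4.79 in WT basal libraries. In MMTVRANK it reached 358, 434 and 484 CPM in luminal and 5.52, 1.1 and 2.51 in basal libraries, so the lineages were far apart in both genotypes. Its log2 fold change was 6.01 (SE 0.51, adjusted p = 7.41e-06) in WT and 7.11 (SE 0.54, adjusted p = 3.25e-06) in MMTVRANK. Cldn7, a claudin also found along the lateral membrane, followed with 149, 148 and 125 CPM against 2.55, 3.24 and 2.4 in WT, and with 131, 137 and 116 against 2.19, 0.843 and 0.862 in MMTVRANK. It changed by 5.68 (SE 0.30, adjusted p = 2.95e-07) and 6.60 (SE 0.32, adjusted p = 1.3e-07).

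Scaled by exon length, the share of all claudin CPM per kilobase in WT luminal cells was 57.8% ± 5.2 (SD, n = 3) for Cldn4, 28.2% ± 3.7 for Cldn3 and 6.19% for Cldn7, and in MMTVRANK luminal cells 47.2%, 37.7% and 7.25%. The families as a whole differed as well: claudins summed to 1182 ± 222 CPM per kilobase in WT luminal and 66.9 ± 40.7 in WT basal cells, and to 908 ± 83.6 and 28.1 ± 3.29 in MMTVRANK. The WT basal sum was led by Cldn4 (22.1%), Cldn1 (15.3%) and Cldn12 (15.2%), a claudin that lacks the usual tail for binding zonula occludens proteins. In WT basal replicate 2 they held 41.4%, 36.2% and 7.48%, and in the other WT basal libraries 13.2% and 11.8%, 6.8% and 2.8%, and 16.4% and 21.7%. In MMTVRANK basal libraries Cldn12 held 38.0%.

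4 more claudins rose in luminal cells of both genotypes. Cldn10, which forms ion-selective pores, read 131, 78.5 and 74.3 CPM in WT luminal and 7.5, 2.95 and 15 in WT basal libraries (log2 fold change 3.49, SE 0.54, adjusted p = 0.000471, and 4.36 in MMTVRANK, adjusted p = 0.000159). Cldn8, a barrier claudin, read 67.1, 37.9 and 33.1 against 4.87, 0.432 and 0 CPM (4.69, SE 1.05, adjusted p = 0.00482, and 6.55 in MMTVRANK, adjusted p = 0.00171). Cldn6, best known from early epithelia, read 25.9, 15.6 and 13 against 0, 0.576 and 0 CPM (6.43, SE 0.91, adjusted p = 0.000161, and 4.82 in MMTVRANK, adjusted p = 0.00081). The Cldn8 and Cldn6 folds each leaned on 1 basal library. Without WT basal replicate 1 the Cldn8 value was 7.60. Without WT basal replicate 2 no WT basal count of Cldn6 was left, so the fitted 10.98 is not a measured size. Cldn6 reached the filter minimum only in luminal libraries, a route that favours its direction. Cldn23 was less abundant, at 4.94, 5.82 and 4.76 against 1.08, 2.88 and 1.2 CPM (1.58, adjusted p = 0.033, and 2.23 in MMTVRANK, adjusted p = 0.00717). Its WT call ended on leaving out WT basal replicate 1 or 3, any WT luminal library or MMTVRANK luminal replicate 2 (adjusted p 0.0528 to 0.0928).

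Cldn12, Cldn5 and Cldn19 went the other way. Cldn12 read 30.1, 36 and 39.7 CPM in basal against 22.7, 21 and 23 in luminal libraries of WT mice, a difference of -0.67 (SE 0.21, adjusted p = 0.0259) that was -1.07 in MMTVRANK (adjusted p = 0.00205). The WT call ended on leaving out WT basal replicate 2 or 3 or any WT luminal library (adjusted p 0.057 to 0.085). Cldn5, the claudin of endothelial tight junctions, read 3.56, 3.03 and 12.2 CPM in the basal libraries of WT and 1.82, 3.04 and 4.54 in those of MMTVRANK mice, and no luminal library exceeded 0.545. The lineage difference was -5.63 (SE 0.89, adjusted p = 0.000362) in WT and -3.24 (SE 0.78, adjusted p = 0.00664) in MMTVRANK. The endothelial cadherin gene Cdh5 was also a basal-library gene, at 66, 38.7 and 91.7 CPM in WT basal, 23.9, 65.8 and 80.8 in MMTVRANK basal and at most 6.74 in luminal libraries. Of 10 endothelial markers, 8 were lower in WT luminal than basal cells and 1 was higher (Vwf), at most 1 of them was at 0 in any library, and their summed level was 107.1 to 342.7 CPM in basal and 147.7 to 274.6 in luminal libraries. The part of endothelial cells in the Cldn5 difference was not tested.

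Cldn19, a claudin of kidney tubules and Schwann cells, read 37, 12.3 and 7.53 CPM in the basal libraries of WT and 9.98, 2.02 and 8.62 in those of MMTVRANK mice. It had 738 counts in the WT basal and 0 in the WT luminal libraries, so it was at least 276-fold lower in WT luminal cells, taking 3 counts over the group as the floor (adjusted p = 0.000344). In MMTVRANK it had 7 luminal counts and a lineage difference of -5.44 (SE 1.06, adjusted p = 0.00302). The 6 Schwann and nerve markers summed to 1483, 751.3 and 745.3 CPM in the basal libraries of WT and 676.9, 372.2 and 648.6 in those of MMTVRANK mice. The highest and the lowest basal library for Cldn19, WT replicate 1 and MMTVRANK replicate 2, were also the highest and lowest for that sum. It was 116.1 to 190.5 CPM in luminal libraries, none of the 6 was at 0 in any library, and 4 of 6 were lower in luminal cells of each genotype. Their part in the Cldn19 difference was not tested.

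Cldn1, a barrier claudin abundant in epidermis, passed the test in neither genotype. In WT mice it read 9.59, 134 and 3.94 CPM in basal and 10.6, 55.5 and 59.1 in luminal libraries, and the 134 belonged to the library rich in keratinocyte markers. Without WT basal replicate 2 the WT log2 fold change moved from -0.24 (adjusted p = 0.883) to 2.63 (adjusted p = 0.0306). It was also above 0 with limma-voom (0.84, adjusted p = 0.557) and with the replicate block (0.22, adjusted p = 0.892). Its MMTVRANK levels were 5.07, 4.47 and 13.6 CPM (basal) and 19.2, 39.4 and 22 (luminal), with no overlap but an adjusted p of 0.25. Cldn2, Cldn15 and Cldn20 were scarce, at no more than 3.68 CPM in any library, and were not called. Cldn2, a pore-forming claudin, became a luminal call in WT only without WT basal replicate 1 (adjusted p = 0.0242).

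The 3 MARVEL proteins, occludin, tricellulin (Marveld2) and Marveld3, were higher in luminal cells of both genotypes. Ocln read 108, 151 and 128 CPM in WT luminal and 3.17, 14.5 and 1.8 in WT basal libraries, and 111, 122 and 101 against 1.21, 0 and 1.49 in MMTVRANK. The lineages were separated in each genotype, by 4.30 (SE 0.76, adjusted p = 0.00118) in WT and 6.92 (SE 0.90, adjusted p = 0.000165) in MMTVRANK. Marveld2, which seals the points where 3 cells meet, read 49.7, 66.5 and 63.5 against 3.71, 8.86 and 0.428 CPM in WT and 48.2, 60.5 and 55.2 against 1.59, 0.0843 and 0.783 in MMTVRANK (3.77, adjusted p = 0.00304, and 6.02, adjusted p = 0.00044). Marveld3 read 56.2, 39.2 and 40.5 against 5.34, 3.53 and 1.8 CPM in WT and 48.1, 39.3 and 39.8 against 1.29, 0.253 and 1.41 in MMTVRANK (3.66, adjusted p = 6.12e-05, and 5.41, adjusted p = 8.18e-06). In all 3 the luminal levels of the genotypes overlapped, and the mean basal level was lower in value in MMTVRANK.

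Among the scaffolds, cingulin and ZO-3 were far higher in luminal cells, while ZO-1 did not pass the test. Cgn had the smallest p of all 47 tested members in both genotypes: 191, 208 and 176 CPM in WT luminal against 2.47, 1.87 and 1.45 in WT basal libraries, and 184, 162 and 163 against 1.74, 2.19 and 1.41 in MMTVRANK. The difference was 6.62 (SE 0.23, adjusted p = 1.92e-08) in WT and 6.57 (SE 0.23, adjusted p = 2.16e-08) in MMTVRANK. Tjp3 (ZO-3) read 94.2, 98.4 and 84.1 against 7.5, 8.28 and 2.57 CPM in WT and 101, 109 and 196 against 2.5, 2.7 and 1.88 in MMTVRANK (3.91, adjusted p = 1.75e-05, and 5.84, adjusted p = 1.96e-06). Tjp1 (ZO-1), which both tight and adherens junctions use, read 293 to 314 CPM in WT luminal and 300 to 349 in WT basal libraries, a difference of -0.10 (SE 0.12, adjusted p = 0.555). Of the 3 zonula occludens genes' CPM per kilobase, Tjp3 held 2.05% in WT basal and 22.2% in WT luminal cells. F11r, the junctional adhesion molecule JAM-A, was modestly higher in luminal cells, at 198, 154 and 143 against 103, 76.2 and 95 CPM in WT (0.85, adjusted p = 0.00251). In MMTVRANK its call (0.54, adjusted p = 0.0345) ended with DESeq2 (adjusted p = 0.0855) and on leaving out any MMTVRANK basal library or MMTVRANK luminal replicate 1 or 2 (adjusted p 0.0568 to 0.132).

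The luminal markers spanned a wide range in the basal libraries, each as a share of its WT luminal mean: Foxa1 stood at 0.285% to 0.73%, Krt19 at 0.308% to 1.08%, Krt18 at 0.804% to 2.03%, Prom1 at 0.931% to 3.11%, Elf5 at 0% to 3.8%, Kit at 3.46% to 7.34%, Krt8 at 4.21% to 7.28%, Esr1 at 3.36% to 11%, Pgr at 4.48% to 8.06% and Epcam at 7.16% to 17.2%. On the same scale Cgn stood at 0.736% to 1.29%, Cldn7 at 0.6% to 2.3%, Cldn3 at 0.266% to 2.44% and Pkp2 at 0.14% to 3.47%. Cldn4 stood at 0.237% to 6.82% and Marveld3 at 0.559% to 11.8%. The part of luminal cells in these basal levels was not tested.

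**Figure D2:**
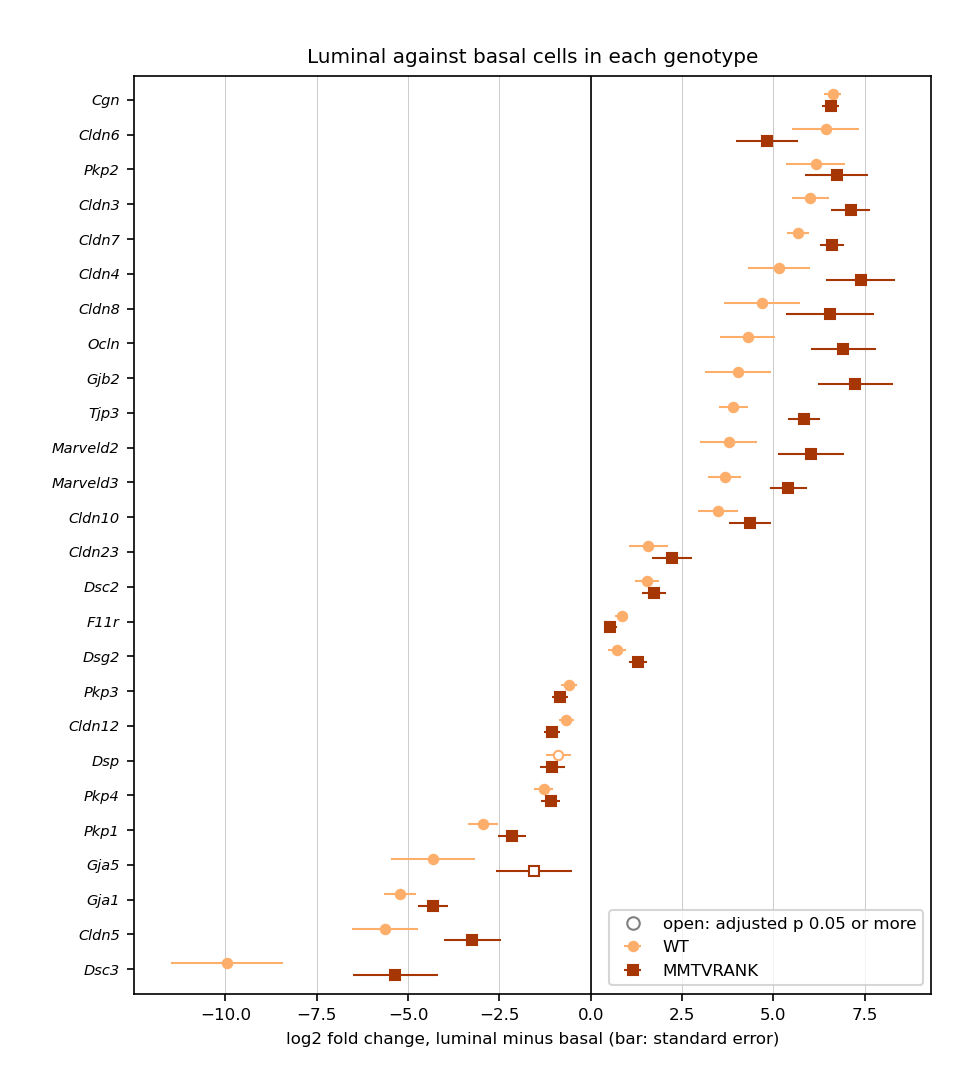
Log2 fold changes, luminal minus basal, in WT (circles) and MMTVRANK (squares) with standard errors, for 26 tested members called in either genotype, with none shown that had 3 or fewer counts in a group; open symbols did not pass. Cgn lies at 6.62 in WT and 6.57 in MMTVRANK, and Gja1 at -5.23 and -4.32.

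Desmosomal genes were expressed in both lineages, with different family members. Desmoplakin and plakoglobin, the plaque proteins common to all desmosomes, were abundant everywhere. Dsp read 1110, 2020 and 859 CPM in basal against 702, 779 and 662 in luminal libraries of WT mice, without overlap, and did not pass the test in WT (-0.90, SE 0.34, adjusted p = 0.0564). With replicate number as a block it did (adjusted p = 0.0164), as it did with DESeq2 (adjusted p = 0.0334) and without WT basal replicate 3 (0.0257) or MMTVRANK luminal replicate 3 (0.0283). Without WT basal replicate 2 it read -0.46 (adjusted p = 0.287). In MMTVRANK it was called lower in luminal cells (-1.06, adjusted p = 0.0317), at 641, 566 and 289 against 1030, 1310 and 779 CPM, a call lost without MMTVRANK basal replicate 1 or 2 or MMTVRANK luminal replicate 2 or 3 (adjusted p 0.0602 to 0.123). Jup, plakoglobin, did not pass the test, at 355, 396 and 338 CPM in WT luminal and 296, 473 and 262 in WT basal libraries (0.08, SE 0.21, adjusted p = 0.8).

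The plakophilins exchanged places between the lineages. Pkp1, the plakophilin of stratified epithelium, read 218, 306 and 198 CPM in basal against 38.5, 37.2 and 17.9 in luminal libraries of WT mice, and 161, 206 and 132 against 61, 25.6 and 25.7 in MMTVRANK. The luminal-minus-basal difference was -2.95 (SE 0.40, adjusted p = 0.000166) in WT and -2.15 (SE 0.39, adjusted p = 0.0013) in MMTVRANK. Pkp2, the plakophilin of simple epithelium and heart, did the reverse: 60.9, 50.7 and 55.7 CPM in WT luminal against 1.93, 0.288 and 0.0856 in WT basal libraries, and 53.4, 56.8 and 50.7 against 1.21, 0.169 and 0.0783 in MMTVRANK. Its difference was 6.15 (SE 0.82, adjusted p = 0.000168) and 6.73 (SE 0.86, adjusted p = 0.000135). Of the CPM per kilobase of the 3 desmosomal plakophilins, Pkp1 held 64.3% in WT basal and 17.9% in WT luminal cells, and Pkp2 held 0.198% and 30.8%. Pkp3 held 35.5% and 51.4% and was slightly lower in luminal cells (-0.61, adjusted p = 0.044, and -0.85 in MMTVRANK, adjusted p = 0.0101). Its WT groups overlapped, at 97.7, 129 and 64.9 against 54.5, 77.5 and 59 CPM, and the WT call ended without any of 10 of the 12 libraries, all but WT basal replicate 3 and WT luminal replicate 2 (adjusted p 0.051 to 0.223). Pkp4, a relative found at adherens junctions, was lower in luminal cells, at 95.3, 84.4 and 99.9 against 128, 307 and 246 CPM in WT (-1.28, adjusted p = 0.00221) and at -1.10 in MMTVRANK (adjusted p = 0.00633).

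The desmosomal cadherins, all on chromosome 18, showed a similar exchange in the desmocollins. Dsc3, the desmocollin of basal layers, read 68, 350 and 22.2 CPM in basal against 0.15, 0 and 0.254 in luminal libraries of WT mice. In MMTVRANK it read 52.5, 64.8 and 72.9 against 3.47, 0 and 1.23 CPM. Its differences were -9.96 (SE 1.54, adjusted p = 0.000487) and -5.35 (SE 1.16, adjusted p = 0.00449), and limma-voom called it in neither genotype (adjusted p = 0.092 and 0.0877). Dsc2, the desmocollin of simple epithelia, was higher in luminal cells, at 65.6, 56.8 and 39.3 against 14.4, 22 and 18.9 CPM in WT (1.55, adjusted p = 0.00294) and at 1.72 in MMTVRANK (adjusted p = 0.00164). Of desmocollin CPM per kilobase, Dsc3 held 75% in WT basal and 0.283% in WT luminal cells, and Dsc2 held 22.7% and 99.7%. Dsc1 was scarce: 86 counts in WT basal and 0 in WT luminal libraries, at least 32.2-fold lower in luminal cells (adjusted p = 0.00492). In MMTVRANK the Dsc1 call (-4.05, adjusted p = 0.0292) ended without any MMTVRANK basal library or without MMTVRANK luminal replicate 2 or 3 (adjusted p 0.0533 to 0.0863). Without MMTVRANK luminal replicate 1, the only luminal library with counts, the fitted -8.21 is not a measured size.

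Dsg2, the desmoglein of simple epithelia, was the main desmoglein in both lineages, with 99.3% of desmoglein CPM per kilobase in WT luminal and 80.8% in WT basal cells (47.9% in WT basal replicate 2). It read 320, 360 and 286 CPM in WT luminal and 167, 251 and 171 in WT basal libraries, a difference of 0.71 (SE 0.25, adjusted p = 0.0401), and of 1.29 in MMTVRANK (adjusted p = 0.00185). The WT call ended with DESeq2 (adjusted p = 0.0517) and without WT basal replicate 1 or 3, WT luminal replicate 1 or 2 or any MMTVRANK basal library (adjusted p 0.0501 to 0.118). Dsg3, a desmoglein of the lower layers of stratified epithelium, read 3.94, 94.1 and 0.599 CPM in basal against 0, 0 and 0.953 in luminal libraries of WT mice. Its WT difference of -6.59 (adjusted p = 0.0202) was -2.77 without WT basal replicate 2 (adjusted p = 0.192). The call ended also without WT luminal replicate 1 or 2 and with limma-voom (adjusted p = 0.182). Without WT luminal replicate 3 no WT luminal count was left, so the fitted -11.84 is not a measured size. In MMTVRANK, Dsg3 had 112 basal and 2 luminal counts, a ratio of 70.1 (95% counting interval 19 to 586), with an adjusted p of 0.0753. It passed without WT basal replicate 2 or 3 (adjusted p = 0.0261 and 0.0439) and with DESeq2 (0.0208).

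The desmogleins of the outer epidermis appeared in single libraries. Dsg1a read 46.9 CPM in WT basal replicate 2, 5.95 in MMTVRANK basal replicate 3, 14.3 in MMTVRANK luminal replicate 3, and 0.681 or less in the other 9. Krt10, a keratin of the same layers, read 603 and 64.1 CPM in the first 2 of those libraries and 5.21 in the third, which held the most leukocyte markers. Dsg1b followed with 7.2, 0.862 and 11.7 CPM, and Dsg1c read at most 2.31 CPM. The 3 genes are near copies of each other, and reads may be split among them. With the filter and all libraries, edgeR called none of them. DESeq2 and limma-voom called Dsg1c higher in luminal cells of MMTVRANK mice (adjusted p = 0.0437 and 0.0428), where edgeR gave 3.86 (adjusted p = 0.0779), and edgeR without the filter called Dsg1a and Dsg1b in several comparisons, the WT lineage one among them. Between WT basal replicate 2 and the other WT basal libraries, Dsg3, Dsc3, Cldn1, Krt1 and Krt10 were all higher in the former. The part of skin cells in these values was not tested.

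**Figure D3:**
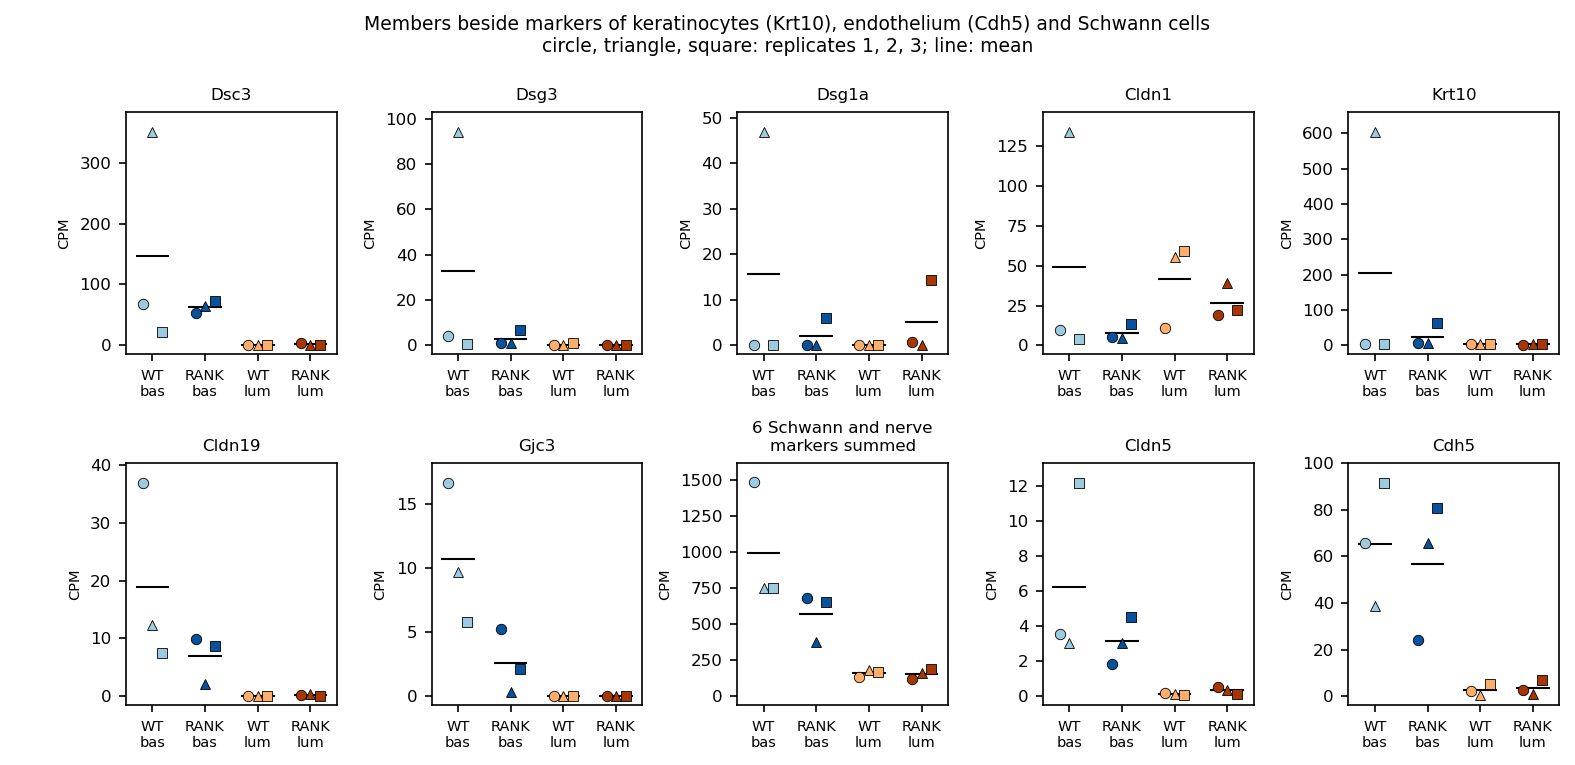
CPM in each library of 7 members beside markers of keratinocytes (Krt10), endothelium (Cdh5) and the summed Schwann and nerve markers; lines are means of 3 libraries. Dsc3, Dsg3, Dsg1a and Cldn1 are highest in WT basal replicate 2, where Krt10 reads 603 CPM, and Cldn19 and Gjc3 are highest in WT basal replicate 1, where the Schwann and nerve markers sum to 1483 CPM.

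Of the 11 tested connexins, 1 was higher and 6 were lower in luminal cells in WT (18% and 20% of all genes), and 1 and 5 in MMTVRANK mice (16.1% and 17%). Among the lower ones in WT, Gja5, Gjc1 and Gjc3 reached the filter minimum only in basal libraries. Gja1 (connexin 43), the main connexin of myoepithelium, read 725, 674 and 921 CPM in basal against 10.8, 20.1 and 30.8 in luminal libraries of WT mice. In MMTVRANK it read 899, 876 and 1050 against 40.8, 28.8 and 71.6 CPM, so that every basal library lay far above every luminal one. The difference was -5.23 (SE 0.43, adjusted p = 4.68e-06) in WT and -4.32 (SE 0.41, adjusted p = 1.2e-05) in MMTVRANK. Gja1 held 61.9% of connexin CPM per kilobase in WT basal and 75.8% in MMTVRANK basal cells. Gjb2 (connexin 26), a connexin of secretory epithelium and of the lactating gland, was the only tested connexin called higher in luminal cells in either genotype. It read 3.59, 22.8 and 19.4 CPM in WT luminal and 0.464, 0.576 and 1.8 in WT basal libraries, and 45.2, 88 and 145 against 0.605, 0 and 1.18 in MMTVRANK. The difference was 4.03 (SE 0.90, adjusted p = 0.00492) in WT, where limma-voom did not call it (adjusted p = 0.0954), and 7.25 (SE 1.02, adjusted p = 0.000271) in MMTVRANK.

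Gjb5, an epidermal connexin on chromosome 4 (127354809 to 127358181), was not tested. It read 0.0773, 3.75 and 1.11 CPM in WT basal libraries and at most 0.627 in the other 9. Gjb6 (connexin 30), next to Gjb2 on chromosome 14, read 6.53, 1.85 and 3.05 CPM in MMTVRANK luminal libraries and at most 1.06 elsewhere. Its luminal-minus-basal difference in MMTVRANK was 3.28 (adjusted p = 0.115). It was 6.26 without MMTVRANK basal replicate 1 (adjusted p = 0.0422) and was called by limma-voom (adjusted p = 0.0186).

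3 connexins of vessels, muscle and glia were lower in luminal cells. Gjc1 (connexin 45) had 317 counts in WT basal and 1 in WT luminal libraries, a ratio of 356 (95% counting interval 63.4 to 14100, adjusted p = 2.12e-05), and was -4.96 in MMTVRANK (SE 0.69, adjusted p = 0.000147). Gja5 (connexin 40), a connexin of arteries and heart, read 4.33, 0.792 and 2.4 CPM in WT basal libraries and at most 0.284 in WT luminal ones (-4.31, SE 1.15, adjusted p = 0.0107). It was not called in MMTVRANK (-1.56, adjusted p = 0.285). Beside Gjc1 and Gja5, 8 of 10 endothelial, 5 of 6 tested pericyte and 7 of 8 fibroblast markers were lower in WT luminal cells. In each list 1 marker was higher, and 20% of all genes were lower. In MMTVRANK 8, 2 and 2 of them were lower and 1, 1 and 0 higher, beside 17% of all genes lower. The pericyte sum went the other way, with means of 231 CPM in WT luminal and 93.5 in WT basal libraries. In MMTVRANK these were 197 and 74.7 CPM. The part of those cells in the Gjc1 and Gja5 differences was not tested. Gjc3 (connexin 29), a connexin of myelinating glia, had 419 counts in WT basal, 100 in MMTVRANK basal and 0 in all 6 luminal libraries. It was at least 157-fold lower in WT luminal cells (adjusted p = 0.00112) and at least 41.7-fold lower in MMTVRANK luminal cells (adjusted p = 0.00386). Its basal levels of 16.7, 9.72 and 5.82 CPM in WT and 5.22, 0.337 and 2.12 in MMTVRANK were highest and lowest in the same libraries as those of Cldn19 and of the Schwann and nerve marker sum. The part of Schwann cells in the Gjc3 difference was not tested. Gja4, Gja6 and Gjb1 were scarce, at no more than 2.31 CPM outside MMTVRANK luminal replicate 3, and were not called by edgeR with the filter and all libraries in either genotype. Without the filter it called Gja4 in both, and Gja4 was called in MMTVRANK also without MMTVRANK luminal replicate 1.

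**Figure D4:**
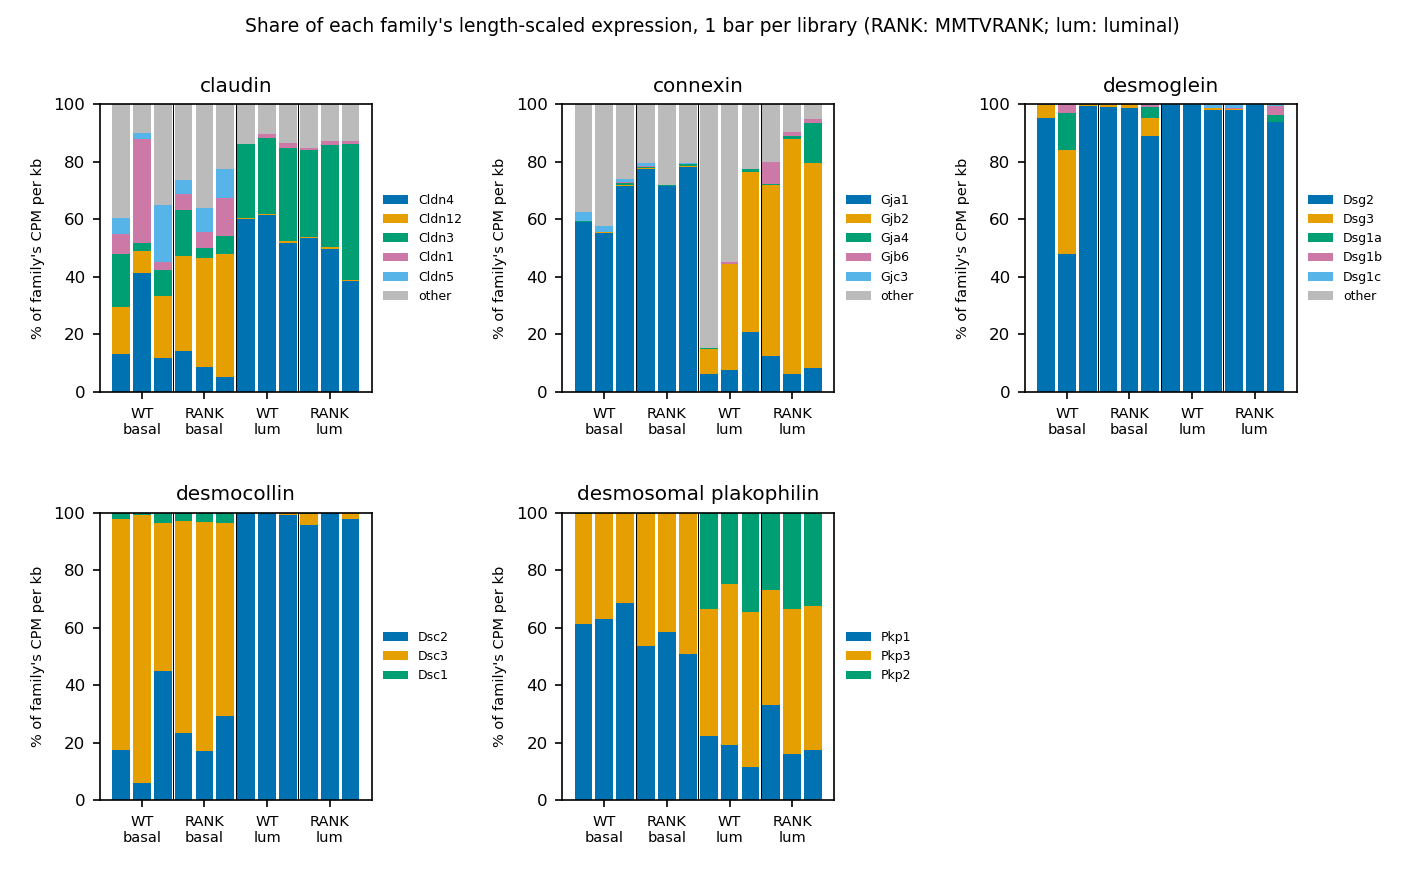
Share of each family's CPM per kilobase held by its members, 1 bar per library in the order WT basal, MMTVRANK basal, WT luminal, MMTVRANK luminal, replicates 1 to 3 from left to right (grey: remaining members). Desmocollin turns from Dsc3 (75% in WT basal) to Dsc2 (99.7% in WT luminal), Pkp2 appears in luminal bars, and connexin turns from Gja1 to Gjb2.

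Of 44 further junction genes listed with the members, 39 symbols were in the table and 34 were tested: 8 were higher in luminal cells and 16 lower in WT (beside 18% and 20% of all genes), and 8 and 16 in MMTVRANK (beside 16.1% and 17%). The 4 with the smallest p in WT were Clmp, a junctional adhesion molecule (73.4, 49.6 and 49.3 CPM in WT basal, at most 0.449 in WT luminal; -7.63, adjusted p = 1.41e-06), the nectin Nectin1 (588, 552 and 757 against 74.5, 111 and 92.8; -2.77, adjusted p = 1.87e-06), the claudin relative Tmem47 (-4.27, adjusted p = 7.99e-06) and Igsf5, an adhesion molecule (15.6, 12.3 and 9.21 CPM in WT luminal, with 1 count over the WT basal libraries; adjusted p = 1.43e-05). All 4 moved in the same direction in MMTVRANK. Of 21 regulators, 18 were tested, with 7 higher and 4 lower in WT luminal cells and 8 and 3 in MMTVRANK, beside the same shares of all genes. Snai2 (Slug), a Snail-family repressor, read 68, 121 and 34.2 CPM in basal against 0.374, 0.497 and 0.318 in luminal libraries of WT mice (-7.53, SE 0.69, adjusted p = 1.31e-05), and 128, 130 and 108 against 0.477, 0.128 and 1.41 in MMTVRANK (-7.45, adjusted p = 9.92e-06). Elf3, an epithelial ETS factor, was higher in luminal cells (3.14, adjusted p = 1.15e-06), as were Tfcp2l1, a grainyhead relative (4.10, adjusted p = 1.17e-05), and the kinase Wnk4, which acts on claudins (2.70, adjusted p = 4.72e-05). Grhl2, a grainyhead-like activator of claudin genes, read 126 to 150 CPM in WT basal and 153 to 184 in WT luminal libraries and was not called (0.23, adjusted p = 0.317).

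Between genotypes, no junction gene passed the test in luminal cells. edgeR called 0 of 47 members, beside 0.252% of all genes, and limma-voom called 0, beside 0.208%. DESeq2 called 1, beside 4.24%. At an unadjusted p under 0.05 there were 9 members, where 12% of all genes passed: 6 connexins and 3 desmosomal cadherins, 8 with higher and 1 with lower values in MMTVRANK. The members' median log2 fold change was 0.05, and that of all genes was 0.03. None of the 9 was a claudin, MARVEL protein or scaffold. The 3 members with the smallest lineage p among those genes overlapped between genotypes, with Cldn3 at 0.05 (adjusted p = 0.998), Cldn7 at -0.13 (adjusted p = 0.929) and Cgn at -0.18 (adjusted p = 0.829). Other tight junction genes did not overlap, though none passed. Without overlap, 7 of 47 members lay higher and 4 lower in MMTVRANK luminal libraries, beside 10.1% and 6.82% of all genes. Tjp3 read 94.2, 98.4 and 84.1 CPM in WT and 101, 109 and 196 in MMTVRANK luminal libraries (0.55, adjusted p = 0.614), and Tjp1 read 293, 307 and 314 against 330, 316 and 327 (0.09, adjusted p = 0.893). F11r lay lower in MMTVRANK, at 198, 154 and 143 against 139, 138 and 105 CPM (-0.37, adjusted p = 0.436), as did the scarce Cldn2, at 0.638 to 3.68 against 0.0586 to 0.272 CPM (-3.60, adjusted p = 0.431).

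Of the 6 expressed members with the smallest p in luminal cells, 4 connexins and Dsg2 are described here. Gjb2 read 3.59, 22.8 and 19.4 CPM in WT and 45.2, 88 and 145 in MMTVRANK. The groups did not overlap, and the log2 difference was 2.6 (SE 0.77, adjusted p = 0.188). Beside Gjb2, the 10 luminal markers summed to 18180, 14160 and 12360 CPM in WT and 11270, 9924 and 6527 in MMTVRANK luminal libraries, and 6 proliferation markers to 138.5, 267.7 and 54.57 against 1488, 617.4 and 1315. Their part was not tested. Per kilobase, Gjb2 held 8.76%, 36.9% and 55.7% of connexin expression in the WT luminal libraries and 59.3%, 81.8% and 71.3% in the MMTVRANK ones. Gja1 read 10.8, 20.1 and 30.8 CPM in WT and 40.8, 28.8 and 71.6 in MMTVRANK (1.19, adjusted p = 0.196). Beside Gja1, the summed basal markers read 36.9, 58.95 and 112.5 CPM in WT and 75.01, 109.4 and 390.7 in MMTVRANK luminal libraries, and their part was not tested. Gja4 (connexin 37), an arterial connexin, read 19.9 CPM in MMTVRANK luminal replicate 3 and at most 0.639 in the other luminal libraries (5.82, adjusted p = 0.173). Without that library the difference was 1.68. The library held 1076 CPM of leukocyte markers and, at 147.7 CPM, the lowest endothelial sum of the luminal libraries. Dsg2 (0.65, adjusted p = 0.305) read 346, 435 and 733 CPM in MMTVRANK, the last in the same library, and was 0.24 without it. Without both WT replicate 2 libraries, Gjb2 differed by 3.01 (adjusted p = 0.232), Gja1 by 1.18 (adjusted p = 0.373) and Dsg2 by 0.74 (adjusted p = 0.328). Gjc1 differed by 8 counts against 1, a ratio of 7.29 (95% counting interval 0.977 to 323, adjusted p = 0.31).

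In basal cells, too, no member passed with edgeR. Most members with the smallest p were tight junction genes, with lower values in MMTVRANK. edgeR called 0 of 47 members beside 0.00548% of all genes, and limma-voom called 0 members and 0% of genes. DESeq2 called 1, Marveld3 (adjusted p = 0.03), beside 0.447%. At an unadjusted p under 0.05 there were 10 members, all with lower values in MMTVRANK, where 5.41% of all genes passed and 3.09% with lower values. Of the 47 members 11 had a log2 fold change above 0, where 50.5% of all genes did, and the median was -0.62 against 0.00. Without WT basal replicate 2, 20 of the 47 were above 0 and the median was -0.31. Those 10 were 4 claudins, the 3 MARVEL proteins, and others that included Tjp3 and Gjc3.

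Marveld3 read 5.34, 3.53 and 1.8 CPM in WT and 1.29, 0.253 and 1.41 in MMTVRANK basal libraries, without overlap (-1.84, SE 0.48, adjusted p = 0.652). In this comparison 5 of 47 members lay lower in MMTVRANK without overlap, beside 4.52% of all genes. Cldn7 read 2.55, 3.24 and 2.4 against 2.19, 0.843 and 0.862 (-1.06, adjusted p = 0.688), and Tjp3 read 7.5, 8.28 and 2.57 against 2.5, 2.7 and 1.88, with overlap (-1.38, adjusted p = 0.688). Cldn4, at 10.4, 85.6 and 9.24 against 7.11, 3.96 and 2.98, was -2.90 (adjusted p = 0.657) with all libraries and -1.06 without WT basal replicate 2. The same omission moved Ocln from -2.83 (adjusted p = 0.688) to -1.43 and Marveld2 from -2.38 (adjusted p = 0.83) to -1.31. It turned Cldn1, Dsc3 and Dsg3 from -2.68, -1.21 and -3.48 to 0.19, 0.50 and 0.38. The sum of 10 luminal markers moved with these genes, at 560.1, 567.6 and 570.8 CPM in WT and 423.7, 410.7 and 341.6 in MMTVRANK basal libraries, and its part was not tested. Schwann and nerve markers also moved with them, with 0 of 6 above 0 (median -1.57) and sums of 1483, 751.3 and 745.3 against 676.9, 372.2 and 648.6 CPM. Of the 8 fibroblast markers 2 were above 0 (median -1.74), with sums of 2989, 585.1 and 359.1 against 711, 687.1 and 705.8 CPM. Their part was not tested. The abundant basal junction genes overlapped between genotypes: Gja1 differed by 0.28, Jup by -0.24, Tjp1 by 0.15 and Pkp4 by 0.20, each with an adjusted p of 1.

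**Figure D5:**
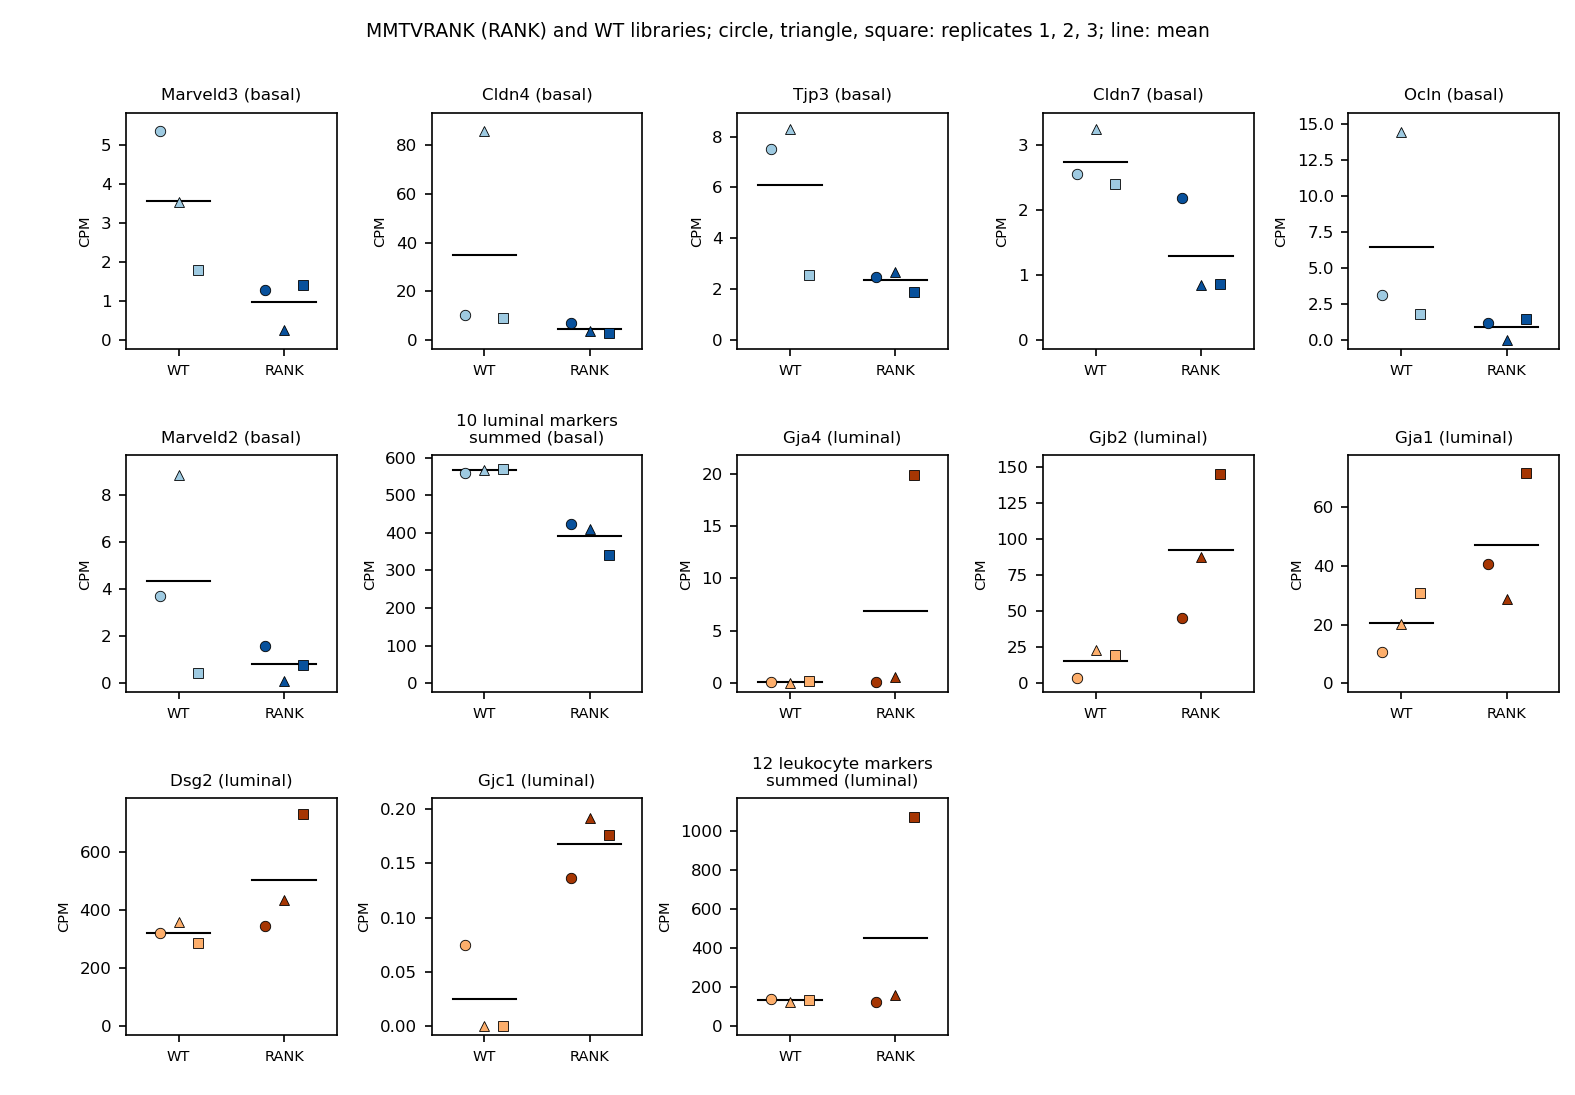
CPM by library of members with the smallest p between genotypes, in basal and in luminal cells, beside the summed luminal markers of the basal libraries and the summed leukocyte markers of the luminal libraries; lines are means. Gjb2 is above 45 CPM in every MMTVRANK luminal library and below 23 in WT, and the luminal marker sum is lower in all 3 MMTVRANK basal libraries.

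The change of the lineage difference with genotype was not called for any member. edgeR called 0 of 47, beside 0.00548% of all genes. DESeq2 called 0 beside 0.693%, and limma-voom called 0 of either. At an unadjusted p under 0.05 there were 11 members, all with a larger luminal-minus-basal value in MMTVRANK, where 7.73% of all genes passed and 4.55% in that direction. The 4 with the smallest p were Tjp3 (1.93, SE 0.53, adjusted p = 0.415), Marveld3 (1.74, SE 0.63, adjusted p = 0.56), Gjc1 (3.03, adjusted p = 0.562) and Gja4 (5.89, adjusted p = 0.571). The 4 groups enter both this comparison and those above, so the values are not further evidence. For Tjp3 the mean basal level was lower and the luminal levels were higher in value in MMTVRANK, whereas for Marveld3 the luminal levels overlapped. For Gja4 the value was 1.79 without MMTVRANK luminal replicate 3.

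15 members were too scarce to test, among them Cldn9, Cldn11, Cldn13, Cldn14, Cldn16, Cldn17, Cldn18, Cldn22, Cldn24, Dsg4, Gja3, Gja10 and Gjb5. Several are known from kidney, stomach, lens or hair. Cldn11, the claudin of myelin and of the testis, was found nearly only in basal libraries, with 33 counts in WT and 11 in MMTVRANK against 0 and 1 in luminal libraries. It passed the filter in 10 of the 12 fits that left out a library and was then lower in WT luminal cells (adjusted p 0.00984 to 0.0387). Gja10 had 27 counts in WT basal and 0 in MMTVRANK basal libraries. Gja10 and Gjb5 each became a lower call in WT luminal cells when 1 library was left out, WT basal replicate 2 for Gja10 (adjusted p = 0.0399) and WT luminal replicate 2 for Gjb5 (adjusted p = 0.0402). Cldn11, Gja10 and Gjb5 each reached the filter minimum in 2 basal and 0 luminal libraries, a route that favours lower calls in luminal cells. Leaving out a library lowered the number of libraries that the filter needed, and the fits share most libraries. Cldn22 had no count anywhere, and all 995 of its exon bases lie inside exons of Wwc2 on the other strand. Reads were counted without regard to strand, so shared bases cannot be told apart for Dsp (499 bases), Dsg2 (330), Gja5 (165), Cldn19 (90), Cldn3 (40) and Tjp3 (40).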

How the data were processed

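RNA of 12 libraries (4 groups, 3 each) was sequenced from a stranded total RNA kit, per the labels' protocols. The deposited values are whole-number read counts per gene symbol, made by the authors with featureCounts 1.5.2 over exons of GENCODE M17 with no strand option, per the file headers. STAR 2.6.1b is named in the submitters' processing notes, with genome build GRCm38.p6. Counts were tested with edgeR 4.0.16 (R 4.3.3): TMM scaling, filterByExpr with a count minimum of 10 (0.728 CPM in at least 3 libraries), 1 quasi-likelihood fit of 4 group means and 5 contrasts, and Benjamini-Hochberg adjustment over all 18236 genes tested (threshold 0.05). The fit was first run on simulated data. Those had a smaller spread between libraries than these data and no lineage difference, so they give no error rates for these data. CPM use TMM-scaled totals. SE is the log2 fold change divided by the square root of F. Intervals on counts are at 95% and cover counting error only. The common biological coefficient of variation was 0.45. No 2 of the 66 library pairs agreed within sampling noise.

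The members and lists were chosen with earlier results of these data known. Values are named for up to 30 called members with the smallest p per lineage comparison, 6 expressed ones (average log2 CPM of at least 1) per genotype comparison, 4 for the difference, and 4 per further list. Pkp3 in the WT lineage comparison, Dsp and F11r in the MMTVRANK one, Grhl2, and members not called were described after their values were seen. Alternatives were relative log expression scaling, no filter, DESeq2 1.42.0, limma-voom (limma 3.58.1), replicate number as a block, and leaving out libraries. Deviations of same-numbered libraries correlated positively in the WT lineage (correlations 0.277, 0.168 and 0.343), MMTVRANK lineage (0.278, 0.144 and 0.199) and luminal genotype comparisons (0.525, 0.125 and 0.392). In the basal genotype comparison the correlations were mixed (0.404, -0.0706 and 0.0915). Differently numbered libraries were not compared. Replicate numbers were used only in the replicate block alternative, and the main fit and its p-values took no account of pairs. Some members and 1 marker gene are not reported here by name, and counts over members include them.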

Additional observations from a re-analysis of the deposited data

How the results depend on the processing

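Called members in the lineage comparisons numbered 27 to 34 in WT and 29 to 36 in MMTVRANK over all alternatives, and 27 to 33 and 29 to 33 when a library was left out. With no filter on low counts, edgeR called 9 members in the luminal genotype comparison, 13 in the basal one (all lower) and 13 for the difference (all higher). That fit had a median of 302000 degrees of freedom in place of 12.4, and called 1353, 349 and 776 of 37789 genes where the filtered fit called 46, 1 and 1 of 18236. DESeq2 called 1 member in the luminal and 1, Marveld3, in the basal genotype comparison. The cause of these changes was not tested. Under every other alternative run, leaving out each library included, the genotype comparisons and the difference had 0 called members. With the replicate block the WT lineage count was 33 (Dsp added) and the MMTVRANK count 32, and the block changed no other call. Over the members picked by the naming rule, 1384 alternative values kept their direction and side of the threshold, 40 lost the call, 15 gained it and 0 reversed. Outside that rule, Cldn1, Dsc3 and Dsg3 changed sign in the basal genotype comparison without WT basal replicate 2, from -2.68, -1.21 and -3.48 to 0.19, 0.50 and 0.38. Cldn1 did so in the WT lineage comparison, from -0.24 to 2.63, and with limma-voom (0.84) and the replicate block (0.22). DESeq2 gave no adjusted p for Cldn4 in either lineage comparison. Leaving out WT basal replicate 2 and MMTVRANK luminal replicate 3 together was chosen after seeing the data. In the luminal genotype comparison the SE was 0.12 for Tjp1 and 0.77 for Gjb2.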
